A study of Mus musculus with 79 samples.

Results

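The comparison described here is delayed against immediate nerve repair in Schwann cells sorted from the regenerative bridge 14 days after surgery. Its members are the 15 libraries whose labels give Schwann cells and collection day 14, of 79 libraries in the series. A fresh common peroneal nerve was grafted to the tibial stump either at once or after that stump had been denervated for 8 weeks, and macrophages and Schwann cells were then sorted from the bridge that formed inside a silicone conduit. The delayed group held 7 animals (4 males and 3 females) and the immediate group 8 animals (4 males and 4 females), 1 library each from a single bridge, out of 32 animals in the series. The methods of the study give the mice of both groups as S100β-eGFP, which express enhanced GFP from a human S100β promoter, and the immediate group received a sham incision 8 weeks before its surgery. The age of the animals is not given in the sources used here. Cells were gated as GFP-positive and negative for the macrophage markers and for a mixture of antibodies against other blood and stromal cells. GFP driven by this promoter is therefore the only positive criterion for the Schwann cell label.

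Schwann cells are the glia of peripheral nerve. Those around large axons wrap them in myelin, a process driven by the transcription factors Sox10, Pou3f1 (Oct6) and Egr2 (Krox20). After injury they leave the myelinating state, switch on genes such as Gap43, Ngfr and Gfap under the control of Jun, divide, and form the tracks along which axons regrow. A stump that stays without axons for a long time is known to lose this repair state by degrees.

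Libraries held 11614940 to 29358569 estimated counts per animal. Totals averaged 21791600 in the delayed and 19072000 in the immediate group (exact permutation test over 6435 splits, two-sided p = 0.244), and 8733 to 10327 genes reached 5 CPM (counts scaled to the library total). Levels below are CPM after TMM scaling (edgeR's trimmed mean of M values), and a log2 fold change is delayed over immediate with its standard error (SE). Sex-linked transcripts matched the labels in 7 of 7 female and 8 of 8 male libraries. In several libraries the RNA stood apart. Delayed replicate 1 had the smallest total and the lowest median rank correlation with the other libraries, at 0.809. Immediate replicates 3 and 5 held neutrophil granule genes, with Camp at 2081 and 748 CPM against at most 0.169 CPM in every other library. Immediate replicate 8 held the most endothelial marker RNA, 422 CPM in sum. These 4 are called the libraries that stood apart below, a choice made after seeing the data. Immediate replicate 2 with B and plasma cell markers (1311 CPM) and delayed replicate 2 with skeletal muscle markers (449.5 CPM) also differed from their groups, and leaving out all 6 was a further setting. Without the 4 libraries 15 of 36 genes examined in depth had an unadjusted p of 0.05 or more, and without the 6 libraries 18 of 34.

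The label was checked against 12 Schwann cell markers, all of which were detected, and against markers of other cells. The Schwann cell markers summed to between 662.6 and 3546 CPM in the delayed libraries (median 2109) and between 572.1 and 1768 CPM in the immediate libraries (median 885.9). Delayed replicates 1, 2, 4 and 6 lay above every immediate library, and delayed replicates 3, 7 and 8 lay within the immediate range. The 14 dendritic cell markers, which include the antigen-presentation chain Cd74, the migration receptor Ccr7 and the growth factor receptor Flt3, summed to 20230 to 50150 CPM in the delayed and 23770 to 55090 CPM in the immediate libraries. Flt3 lay between 238.5 and 635.1 CPM and Ccr7 between 2360 and 12630 CPM, whereas the macrophage libraries of the same animals, scaled on their own, held at most 1.57 and 46.5 CPM. The macrophage markers summed to 1128 to 7343 CPM and 979.4 to 5728 CPM. The 12 fibroblast markers, which include collagens, summed to 1998 to 19890 CPM in the delayed (median 4988) and 1327 to 16180 CPM in the immediate libraries (median 7109), and 0 of the 10 tested had a p under 0.05. The libraries thus held defining markers of Schwann cells, dendritic cells, macrophages and fibroblasts, and they are called by their sort, the Schwann cell fraction. Fewer cells of a type and less RNA per cell cannot be told apart in such bulk libraries.

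**Figure D1:**
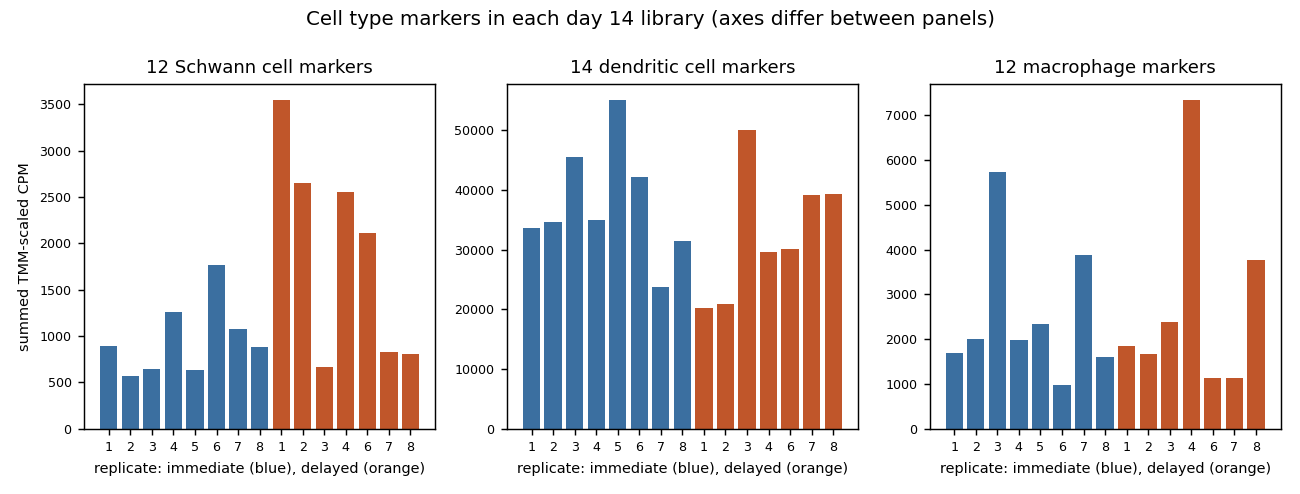
Summed TMM-scaled CPM (linear axes starting at 0, which differ between panels) of the Schwann cell, dendritic cell and macrophage markers in each immediate (blue) and delayed (orange) day 14 library, 1 bar per animal. The Schwann cell sum is highest in delayed replicates 1, 2, 4 and 6 and reaches 3546 CPM, while the dendritic cell sum is at least 20230 CPM in every library.

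Across the transcriptome the delay gave no gene that passed the threshold. Of 23361 genes, 10226 reached 5 CPM in at least 6 libraries and were tested, and 0 (0%) had a Benjamini-Hochberg adjusted p under 0.05 in edgeR's quasi-likelihood test. Before adjustment, 373 genes (3.65%) had a p under 0.05, of which 222 were higher (2.17%) and 151 lower (1.48%) after delayed repair. That total is below the share that a uniform distribution of p-values would place under this threshold. The split between the directions depended on the setting, with 821 higher and 839 lower without a filter on low counts, 278 and 280 in limma-voom, 165 and 165 without the 6 libraries, and 137 and 269 with the Schwann cell marker level as a covariate. DESeq2 called 3 genes (0.0293%), Kif21a, Gpr155 and Aqp1, and limma-voom called 0. The spread between animals was wide, with a common biological coefficient of variation of 0.556 against 0.279 in the macrophages of the same animals. The genes below are therefore ranked and counted by edgeR's unadjusted p, with a threshold of 0.05 and the 95% confidence interval of the fit. The adjusted p was 0.998 for each gene named except Kif21a, so that none of these differences is a call.

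Myelin genes made up the pathway list with the largest share of low p-values among those examined. Of 35 structural myelin genes, 26 were tested, 9 were higher after delayed repair at an unadjusted p under 0.05 (34.6%, against 2.17% of all genes tested), and 0 were lower. Their median log2 fold change was 0.41, with 19 of 26 above 0, against a median of -0.01 over all genes tested. All 26 reached 5 CPM in libraries of both groups, and 24 in at least 3 of each. Without the filter, all 35 members gave 14 higher and 0 lower, with a median of 0.73, where 4.76% of all 17244 genes were higher. None passed the adjusted threshold.

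The major proteins of compact myelin showed the pattern most plainly. Mbp, which holds the cytoplasmic faces of the myelin membrane together, was at 1225, 775, 283, 831, 534, 115 and 277 CPM in delayed replicates 1, 2, 3, 4, 6, 7 and 8, the order used throughout. Immediate replicates 1 to 8 held 152, 153, 89.6, 251, 171, 598, 97.9 and 232 CPM. Delayed replicates 1, 2 and 4 exceeded every immediate library, immediate replicate 6 was the highest of its group, and the groups overlapped. On the log2 scale the difference was 1.40 ± 0.47 (95% confidence interval 0.41 to 2.39), and 0.92 (p over 0.05) without the 4 libraries that stood apart, and 0.57 (p over 0.05) without the 6. Pmp22, the tetraspan protein whose gene dose causes inherited neuropathies, ranged from 134 to 1307 CPM (median 617) against 71 to 741 CPM (median 186). Its log2 fold change was 1.66 ± 0.53 (95% confidence interval 0.54 to 2.77), and 1.21 (p over 0.05) without the 4 libraries and 0.74 (p over 0.05) without the 6.

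Mal and Prx had the smallest p-values of the list. Mal, a raft-associated proteolipid of compact myelin (GRCm38 chr2:127633226-127656695, minus strand), was at 154, 117, 28.9, 146, 110, 28.3 and 31.8 CPM after delayed repair. After immediate repair it was at 32.1, 28.4, 6.74, 36.9, 27.5, 32.8, 21.6 and 44.8 CPM. The 4 high delayed libraries were the same as the 4 highest for Pmp22, and here no immediate library approached them. The log2 fold change was 1.61 ± 0.43 (95% confidence interval 0.70 to 2.51), between 1.42 and 1.77 with any 1 library left out, and 1.16 (p over 0.05) without the 6 libraries.

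Prx encodes periaxin, which links the outer Schwann cell membrane to the basal lamina (chr7:27499324-27520214, plus strand). It was at 135, 157, 38.5, 179, 136, 21.5 and 30.1 CPM in the delayed libraries. The immediate libraries held 19.2, 12.4, 0, 25, 5.37, 36, 2.99 and 11 CPM. All 7 delayed libraries were above the immediate mean, and replicates 7 and 8 of the delayed group lay below immediate replicate 6. The fitted difference was 2.83 ± 0.76 (95% confidence interval 1.23 to 4.43), 2.31 (p under 0.05) without the 4 libraries and 1.97 (p under 0.05) without the 6. Both genes were at or near 0 in the separately scaled macrophage libraries of the same animals, where Mal reached at most 0.619 CPM and Prx at most 1.07 CPM. This did not hold for every gene of these lists, since Pmp22 was at 549 to 906 CPM, Mbp at 7.21 to 25.7 CPM and the regulator Egr2 at 58 to 176 CPM in those libraries.

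**Figure D2:**
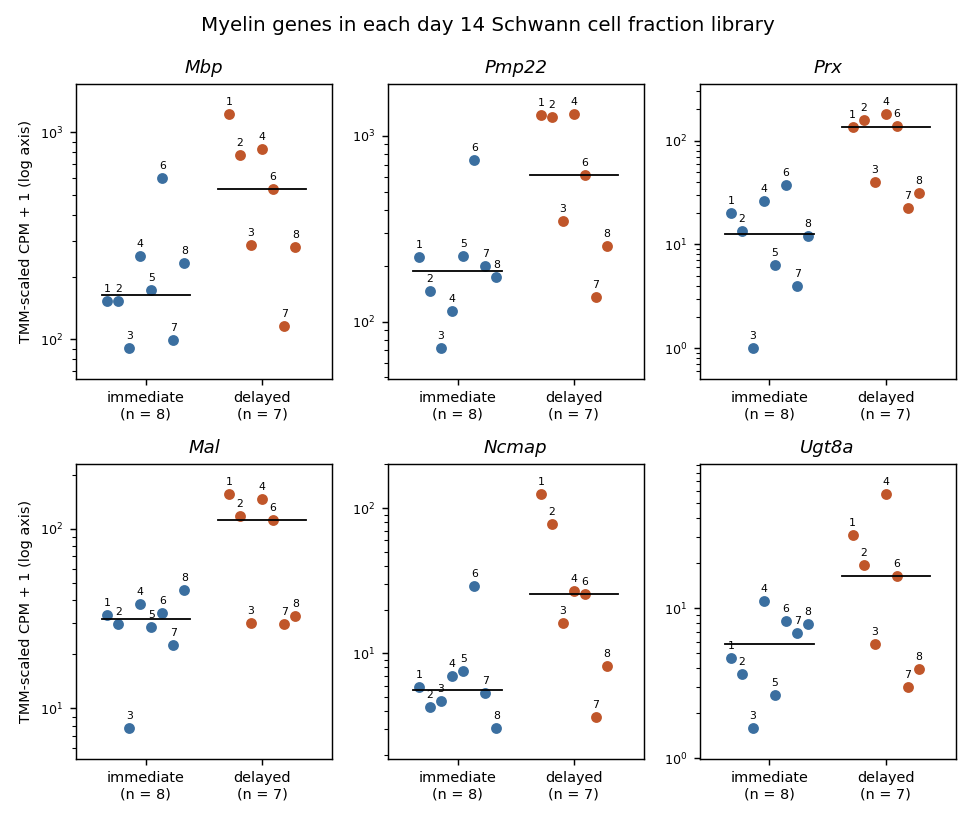
TMM-scaled CPM + 1 (log axis) of 6 myelin genes in each day 14 library, with the replicate number above each point and a bar at the group median, for 8 immediate and 7 delayed animals. Delayed replicates 1, 2, 4 and 6 are the 4 highest delayed libraries for all 6 genes, and immediate replicate 6 is the highest of its group for every gene but Mal and Ugt8a.

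The sequence just upstream of the start is shown for Mal and Prx, since they were high in the same libraries and were the 2 structural myelin genes with the smallest p-values. Each run is the 250 bases before the start site, on the gene's strand, from RefSeq promoters of GRCm38.p6 (Mal chr2:127656696-127656945, minus strand, and Prx chr7:27499074-27499323, plus strand). Capitals mark matches to GTGGGNG, a core that EGR-type zinc fingers bind, or to ACAANG, a core that SOX proteins bind, on either strand.
Mal: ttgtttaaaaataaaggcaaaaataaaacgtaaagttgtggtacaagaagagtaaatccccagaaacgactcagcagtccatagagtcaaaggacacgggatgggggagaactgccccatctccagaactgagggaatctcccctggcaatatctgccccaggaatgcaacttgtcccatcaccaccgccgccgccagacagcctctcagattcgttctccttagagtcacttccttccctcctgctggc
Prx: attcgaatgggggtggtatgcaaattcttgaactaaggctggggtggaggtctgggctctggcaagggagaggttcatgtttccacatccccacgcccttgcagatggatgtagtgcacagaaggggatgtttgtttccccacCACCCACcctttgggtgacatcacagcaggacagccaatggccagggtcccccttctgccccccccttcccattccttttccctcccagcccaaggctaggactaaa
The Prx window held 1 match, to the EGR-type letters on the opposite strand between 107 and 101 bases before the start, and no match to the SOX-type letters. The Mal window held neither. Of 32817 windows of this length, 28.1% held the first and 36.3% the second. These matches are a description of the windows and not of binding.

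The other members varied in size and in how far they rested on 1 library. Ncmap, a myelin membrane protein of peripheral nerve, had a log2 fold change of 2.42 ± 0.73 (95% confidence interval 0.89 to 3.95). It was 1.45 (p over 0.05) without the 4 libraries that stood apart, 0.49 (p over 0.05) without the 6, and 1.15 (p over 0.05) with the Schwann cell marker level in the model. Ugt8a, which makes the myelin lipid galactosylceramide, had one of 1.93 ± 0.69, or 1.33 (p over 0.05) without delayed replicate 4 and 1.50 (p over 0.05) without the 4 libraries. Cnp, an enzyme of the cytoplasmic channels of myelin, was at 0.73 ± 0.32, with a p of 0.05 or more when any of 5 libraries was left out, and it was 0.56 without delayed replicate 6. Gjc3, a connexin, was at 0.91 ± 0.43, and its p reached 0.05 or more with any of 9 libraries left out, the value without delayed replicate 6 being 0.58. Without the 4 libraries Cnp was at 0.68 (p over 0.05) and Gjc3 at 0.81 (p over 0.05). Mag, the adhesion protein next to the axon, was too low to be tested, at 0.739 to 46.5 CPM in the delayed and 0 to 6.33 CPM in the immediate libraries. All 4 lipid enzymes tested were above 0, with 1 (Ugt8a) at a p under 0.05. Tight junction and scaffold proteins such as Cldn1, Pard3 and Ezr had log2 fold changes of -0.10, -0.11 and -0.02.

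Averaged over all 35 members as log2(CPM + 1), the list stood at 5.28, 5.30, 4.08, 5.55, 5.12, 3.89 and 4.09 in the delayed libraries and between 3.46 and 4.33 in the immediate libraries. The delayed group was thus split, with replicates 1, 2, 4 and 6 above the highest immediate library and the other 3 within the immediate range. The same 4 libraries had the highest sums of Schwann cell markers, and their dendritic cell sums were 20230 to 30160 CPM against 39220 to 50150 CPM in the other 3 delayed libraries. Without the 4 libraries that stood apart, 2 of 24 members tested were higher and 0 lower, with a median of 0.31, where 1.81% of all genes were higher. Without the 6 libraries 1 of 22 was higher and 0 lower, with a median of 0.08, where 1.76% of all genes were higher. Those 6 include delayed replicates 1 and 2 (5.28 and 5.30). They also include immediate replicates 2, 3 and 5 (3.84, 3.57 and 3.46), the lowest of their group for this list. Leaving them out therefore took away part of the difference itself and made both groups smaller, so a smaller value was built into that setting. When the Schwann cell marker level of each library was added to the model, 1 of 26 structural myelin genes was higher at a p under 0.05, where 1.34% of all genes were, and their median log2 fold change was -0.01. In that model Mal was at 0.57 (p over 0.05) and Pmp22 at 0.72 (p over 0.05). The marker list itself holds Mbp, Prx and Egr2 and moved with the myelin genes, so that a change in myelin genes and a change in Schwann cell content cannot be told apart by it. With the dendritic cell marker level in the model, 9 of 26 were higher, against 2.09% of all genes, and the median was 0.28.

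**Figure D3:**
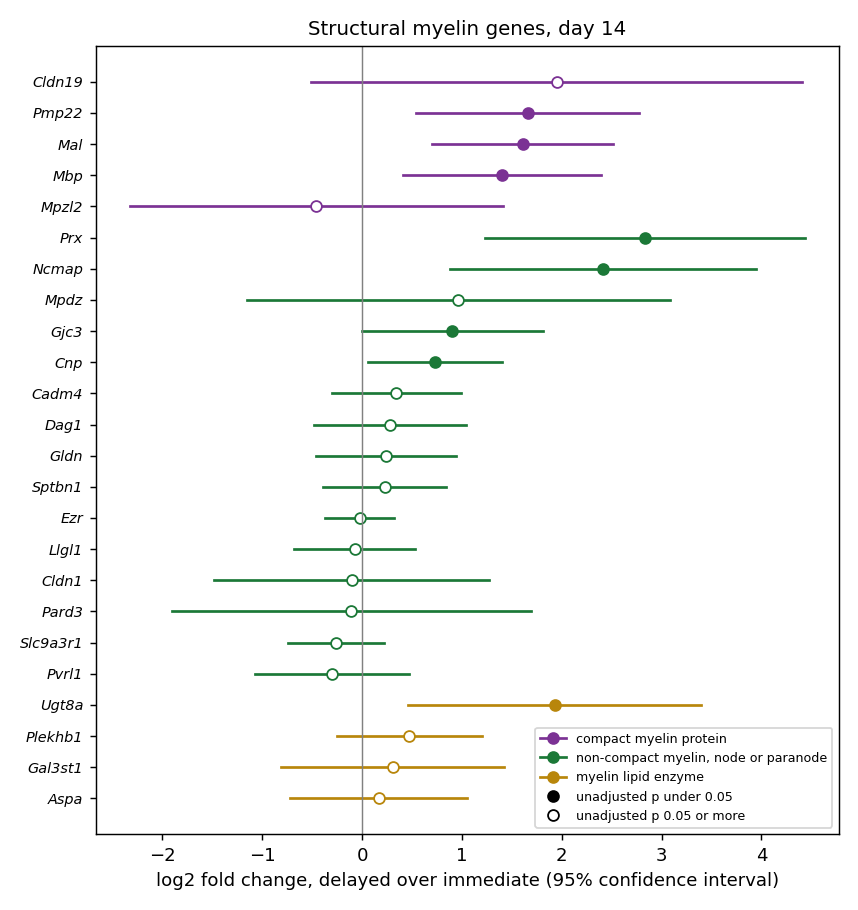
log2 fold change, delayed over immediate, with its 95% confidence interval for 24 of the 26 structural myelin genes tested, coloured by role. Filled points have an unadjusted p under 0.05, all of them lie above 0, and the largest is Prx at 2.83.

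Of 32 regulators and signals for myelination, 27 were tested and 22 had a positive log2 fold change (median 0.25), among them 14 of 18 promyelinating regulators. Only Pou3f1 was higher at a p under 0.05 (3.7%, against 2.17% of all genes), and 0 were lower. The sign of the list depended on the setting. With the Schwann cell marker level in the model 11 of 27 were positive (median -0.10), and without the 6 libraries 16 of 27 (median 0.04). With the dendritic cell marker level 20 were positive, and 23 without the 4 libraries that stood apart. Pou3f1, which starts the promyelinating programme (chr4:124656807-124660655, plus strand), was at 164, 83.1, 24.5, 88.8, 113, 20.3 and 31.7 CPM after delayed repair. The immediate libraries held 43, 16.6, 19, 16.8, 11.4, 44.7, 20.1 and 24.1 CPM. Delayed replicates 1, 2, 4 and 6 were above every immediate library. On the log2 scale the difference was 1.62 ± 0.44 (95% confidence interval 0.69 to 2.54), 0.60 (p under 0.05) with the Schwann cell marker level in the model and 0.84 (p over 0.05) without the 6 libraries. Egr2, the factor that maintains myelin genes, was at 0.71 ± 0.41 (95% confidence interval -0.15 to 1.58). Sox10, which specifies the lineage, was at -0.26 ± 0.38 (95% confidence interval -1.07 to 0.55), with 15.6 to 144 CPM in the delayed and 55 to 208 CPM in the immediate libraries.

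Genes of the repair Schwann cell state split in both directions. Of 45 listed, 34 were tested, 4 were higher (11.8%, against 2.17% of all genes) and 5 lower (14.7%, against 1.48%) at an unadjusted p under 0.05, and their median log2 fold change was 0.15. The lower genes were Gap43, Ngfr, Tnc, Fgf5 and Btc, and the higher ones Gfap, Id4, Ncam1 and Dhh. The 12 transcription factors tested held 1 of these, Id4. Without the 4 libraries that stood apart, 1 of 32 tested was higher and 3 were lower, against 1.81% and 1.26% of all genes. Without the 6 libraries 0 of 31 were higher and 5 lower, against 1.76% of all genes in each direction. The median of the list turned to -0.01 without the 4 libraries and -0.16 without the 6. It was -0.29 with the Schwann cell marker level in the model and 0.06 with the dendritic cell marker level.

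Gap43, a growth-cone protein that denervated Schwann cells also make (chr16:42248442-42340651, minus strand), had the largest difference of these 9. Delayed libraries held 24.1, 9.74, 0.686, 7.72, 13.9, 24.2 and 29.4 CPM. Immediate libraries held 6.39, 36.5, 35.5, 141, 66.1, 35.6, 192 and 85.5 CPM. All immediate libraries but replicate 1 were above every delayed library. The fitted difference was -2.25 ± 0.67 (95% confidence interval -3.67 to -0.84), and it was -2.51 (p under 0.05) without the 4 libraries that stood apart and -2.37 (p under 0.05) with the Schwann cell marker level in the model.

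The other 4 lower genes rested more on single libraries. Ngfr, the p75 neurotrophin receptor, was at 3.16 to 21.6 CPM after delayed repair and 7.96 to 65.3 CPM after immediate repair (log2 fold change -1.05 ± 0.45). Tnc, the matrix glycoprotein tenascin C, was at 204 to 777 CPM and 93.4 to 2686 CPM (-1.25 ± 0.52). The fibroblast growth factor gene Fgf5 was at 10.8 to 134 CPM and 35.6 to 453 CPM (-1.14 ± 0.49). Btc, a ligand of the epidermal growth factor receptor, was at 23.1 to 172 CPM and 78.3 to 420 CPM (-0.83 ± 0.39). Immediate replicate 4 was the highest library for all 4, and without it the differences shrank to -0.78, -0.84, -0.70 and -0.51, each with a p over 0.05. Without the 4 libraries that stood apart, Fgf5 was at -1.08 (p over 0.05) and Btc at -0.86 (p over 0.05), whereas Ngfr (-1.18) and Tnc (-1.38) had a p under 0.05. With the Schwann cell marker level in the model, 7 of the 22 repair signals and markers were lower and 0 higher, where 2.63% of all genes were lower and 1.34% higher. With the dendritic cell marker level 4 were lower and 3 higher, against 1.79% and 2.09%.

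Gfap, the intermediate filament of non-myelinating and injured glia, went the other way. It was at 124, 39.6, 3.59, 63.3, 31.6, 12.7 and 13.1 CPM after delayed repair and the immediate libraries held 6.39, 11.5, 2.81, 15.4, 7.08, 3.55, 17.4 and 10.8 CPM. Its log2 fold change was 2.13 ± 0.60 (95% confidence interval 0.86 to 3.40), 0.46 (p over 0.05) with the Schwann cell marker level in the model and 1.35 (p over 0.05) without the 4 libraries. Its 4 highest delayed libraries were those of the myelin genes. Id4, an inhibitor of bHLH factors, was at 1.83 ± 0.66, and 1.17 (p over 0.05) without delayed replicate 1, and it was too low to be tested without the 4 libraries. Dhh, the hedgehog ligand of Schwann cells, was at 0.98 ± 0.40, and 0.84 (p over 0.05) without the 4 libraries. Jun, the master regulator of the repair state, was at -0.23 ± 0.24, with 412 to 846 CPM and 362 to 1106 CPM. Sox2, which holds cells immature, was at 0.22 ± 0.43 (95% confidence interval -0.69 to 1.14), and its sign turned in 5 of the alternative settings.

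**Figure D4:**
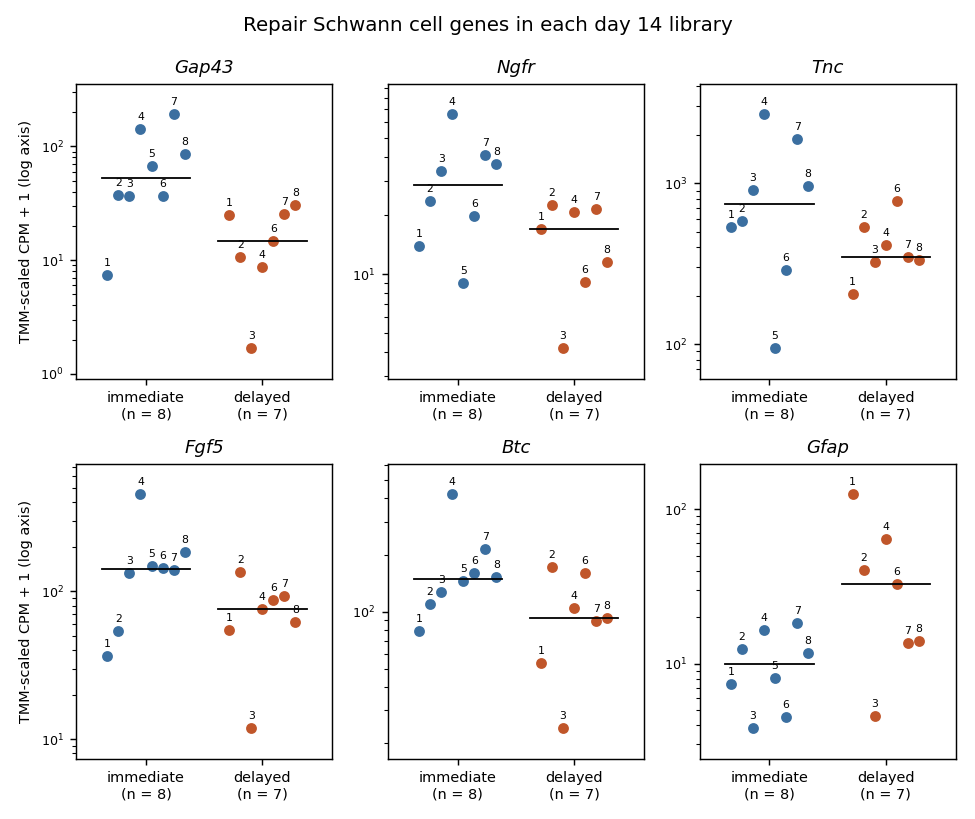
TMM-scaled CPM + 1 (log axis) of 6 repair Schwann cell genes in each day 14 library, with replicate numbers and a bar at the group median, for 8 immediate and 7 delayed animals. Gap43 is lower in the delayed libraries than in every immediate library except replicate 1, immediate replicate 4 is highest for Ngfr, Tnc, Fgf5 and Btc, and Gfap is high in delayed replicates 1, 2, 4 and 6.

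Genes of Schwann lineage identity were mostly on the positive side. Of 34 listed, 30 were tested, 24 had a positive log2 fold change, 4 were higher (13.3%, against 2.17% of all genes) and 2 lower (6.67%, against 1.48%) at a p under 0.05. The higher genes were Gas2l3, Ncam1, Dhh and the potassium channel gene Kcna1, and the lower ones Ngfr and the adhesion gene Nrcam. Gas2l3 was not particular to this fraction, where it lay at 12.2 to 57.9 CPM. It lay at 93.5 to 170 CPM in the separately scaled macrophage libraries of the same animals. Their median log2 fold change was 0.65, and -0.27 with the Schwann cell marker level in the model, where 1 was higher and 6 lower (1.34% and 2.63% of all genes). That level is built from genes of the same kind, and Ngfr is in both lists. The model thus cannot tell a change in lineage genes from a change in Schwann cell content. Without the 6 libraries the median was under 0.01 in size, with 14 of 29 positive. Kcna1 was at 1.17 ± 0.52, and 0.84 (p over 0.05) without the 4 libraries that stood apart. The GFP of the sort is driven by a human S100β promoter, and the RNA measured here is that of the mouse gene S100b. S100b was at 47.2, 21.2, 3.9, 29.4, 12.6, 3.5 and 3.17 CPM in the delayed libraries and 0.887 to 17.5 CPM in the immediate libraries (1.04 ± 0.68). Nrcam was at 2.6 to 37.8 CPM against 15.4 to 53.5 CPM (-1.27 ± 0.44).

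Some of the smallest p-values belonged to genes outside these programmes. Kif21a, a kinesin that regulates microtubule growth (chr15:90933276-91049948, minus strand), had the smallest of all. It was at 53.9, 25.9, 10.1, 39.9, 18.5, 8.03 and 7.37 CPM after delayed and at 5.21, 2.52, 1.94, 3.44, 4.48, 8.05, 4.68 and 5.46 CPM after immediate repair. Only immediate replicate 6 overlapped the delayed libraries. The fitted difference was 2.38 ± 0.46 (95% confidence interval 1.40 to 3.37), with adjusted p = 0.879 in edgeR and adjusted p = 0.00228 in DESeq2. Gpr155, a lysosomal cholesterol sensor, was at 2.04 ± 0.47 (DESeq2 adjusted p = 0.0381). Serpina3n, a secreted protease inhibitor, was at 19.7 to 85 CPM against 4.46 to 36.6 CPM (1.54 ± 0.41). With the Schwann cell marker level in the model Kif21a was at 1.42 (p under 0.05), Gpr155 at 1.09 (p under 0.05) and Serpina3n at 0.93 (p under 0.05). Without the 6 libraries Kif21a was at 1.65 (p under 0.05), Gpr155 at 1.18 (p over 0.05) and Serpina3n at 0.92 (p over 0.05). The highest values of Kif21a and Gpr155 were again in delayed replicates 1, 2, 4 and 6.

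A second set of higher genes had groups that did not overlap. In 7 genes (0.0685% of those tested) every delayed library exceeded every immediate library, namely Xrn2, Dyrk2, Fem1b, Cdh1, Tfdp2, Zfp488 and Cux1. Of these, Cdh1 reached 5 CPM after TMM scaling in delayed libraries only, so the filter on low counts favoured its place here. Xrn2, a nuclear exoribonuclease of transcription termination (chr2:147012996-147078000, plus strand), was at 138, 127, 136, 112, 112, 118 and 112 CPM after delayed repair. After immediate repair it was at 51, 97.4, 62, 69.1, 106, 85.8, 87.4 and 66.3 CPM. Its log2 fold change was 0.64 ± 0.16 (95% confidence interval 0.31 to 0.97), and 0.69 (p under 0.05) with the Schwann cell marker level in the model.

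Dyrk2, a protein kinase, lay at 19.1 to 32.6 CPM against 7.43 to 17.5 CPM (0.88 ± 0.23). Fem1b, a substrate receptor of a ubiquitin ligase, lay at 71 to 88.6 CPM against 21.3 to 61.9 CPM (0.82 ± 0.21). Cdh1, the gene of E-cadherin, lay at 5.82 to 33.1 CPM against 0 to 4.98 CPM (2.57 ± 0.80). No immediate library reached 5 CPM of Cdh1 on this scale, so its difference is partly set by the filter. Zfp488, a transcription factor linked to myelinating glia, barely separated the groups, with a lowest delayed library at 11.22 CPM and a highest immediate library at 11.19 CPM (0.57 ± 0.23). Ern1, the kinase that senses unfolded protein in the endoplasmic reticulum (chr11:106394650-106487852, minus strand), lay at 15.1 to 32.8 CPM against 4.26 to 20.9 CPM (1.33 ± 0.34). Its target Dnajb9 was at 0.36 ± 0.14, and these were the 2 of 31 stress genes with a p under 0.05 (6.45%, against 2.17% of all genes higher).

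Among the lower genes, 1 (0.00978%) had groups that did not overlap, the uncharacterised 0610012G03Rik at 23.8 to 31.8 CPM against 34.7 to 56.8 CPM (-0.54 ± 0.15). Aqp1, a water channel (chr6:55336432-55348555, plus strand), had the smallest p of the lower genes. It was at 0.0821, 15.1, 8.44, 17.9, 5.56, 11.3 and 10.2 CPM after delayed repair and at 57.1, 101, 39.9, 142, 32.1, 15.1, 55.4 and 42 CPM after immediate repair. Immediate replicate 6 alone fell inside the delayed range. Its log2 fold change was -2.62 ± 0.62 (DESeq2 adjusted p = 0.021), and -2.61 (p under 0.05) with the Schwann cell marker level in the model. Uchl1, a deubiquitinating enzyme best known from neurons, lay at 6.49 to 21.7 CPM against 10.2 to 54.2 CPM (-1.41 ± 0.38). Dtna, a dystrophin-associated protein, had a log2 fold change of -1.36 ± 0.40.

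Genes of DNA replication mostly had negative log2 fold changes. Of 20 listed, 19 were tested, 18 had a negative log2 fold change, 4 were lower at a p under 0.05 (21.1%, against 1.48% of all genes) and 0 higher, with a median of -0.42. Mcm6, a subunit of the replicative helicase, was at 23.1, 58, 67.3, 91.9, 65.2, 49.2 and 67.8 CPM after delayed and at 74.1, 84.6, 130, 74.2, 84.2, 114, 97.6 and 81.2 CPM after immediate repair. Delayed replicate 4 alone exceeded the lowest immediate libraries. The log2 fold change was -0.61 ± 0.23 (95% confidence interval -1.10 to -0.13). Rrm2, a subunit of the enzyme that supplies deoxynucleotides, lay at 9.7 to 36.4 CPM against 9.8 to 117 CPM (-1.24 ± 0.49, or -0.92, p over 0.05, without immediate replicate 3, and -0.87, p over 0.05, without the 4 libraries that stood apart). Gins2 (-1.02 ± 0.43) and Mcm3 (-0.42 ± 0.19) belong to the same helicase complex. Mcm3 had a p of 0.05 or more with any of 11 libraries left out and Gins2 with any of 5, and Mcm3 was at -0.35 (p over 0.05) without the 4 libraries. The clamp loader subunit Rfc1 (-1.42 ± 0.36), the single-strand binding protein Rpa2 (-0.86 ± 0.27) and the primase Prim1 (-1.23 ± 0.39) are not in that list. They are named because they were among the 12 lower genes with an assigned symbol and the smallest p. Picked by their values, they add nothing to the count of the list.

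With the Schwann cell marker level in the model all 19 were negative (median -0.45) but 0 had a p under 0.05, and without the 4 libraries that stood apart 3 of 18 were lower, against 1.26% of all genes. Without the 6 libraries 1 of 17 was lower, against 1.76%. Of 22 mitotic genes tested, 14 were positive (median 0.15), 0 had a p under 0.05 in either direction. The mean log2(CPM + 1) of all 24 listed mitotic genes in the table ran from 2.57 to 5.37 in the delayed and from 1.97 to 4.57 in the immediate libraries, with the delayed median below the immediate one of 3.60. The sign of the mitotic genes depended on the model, since 16 of 22 were negative with the Schwann cell marker level in it (median -0.61), 12 of 22 with the dendritic cell marker level (median -0.11) and 10 of 14 without the 6 libraries (median -0.36). Whether the replication and mitotic genes differed from each other was not tested. The regulator list held 1 lower gene, the kinase Cdk2 (-0.78 ± 0.32, or -0.46, p over 0.05, without the 4 libraries). The source of replicating cells within the fraction was not tested.

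Other programmes held at most 4 low p-values each. Of 20 enzymes of cholesterol synthesis, which myelinating cells need in bulk, 17 were tested and 16 had a negative log2 fold change (median -0.32), yet 0 had a p under 0.05. Negative members numbered 16 with either marker level in the model, 14 without the 4 libraries that stood apart and 12 without the 6 (median -0.16). The smallest p-values were those of Cyp51 (-0.45 ± 0.22) and Fdps (-0.46 ± 0.24), and immediate replicate 2 was the highest library for both. Of 63 extracellular matrix genes tested, Lama2, the laminin chain of the Schwann cell basal lamina, was higher (2.06 ± 0.63) and Tnc lower, which is 1.59% in each direction against 2.17% and 1.48% of all genes. Lama2 was at 0.40 (p over 0.05) with the Schwann cell marker level in the model and at 1.24 (p over 0.05) without the 4 libraries that stood apart. With that marker level in the model 56 of the 63 matrix genes were negative (median -0.58), and 11 were lower and 0 higher at a p under 0.05, where 269 of all 10226 genes were lower. Of 39 neurotrophic factors and receptors tested, Lifr was higher (0.80 ± 0.38) and Ngfr, Fgf5 and Inhba (-1.64 ± 0.75) were lower (2.56% and 7.69%, against 2.17% and 1.48% of all genes). Without the 4 libraries 0 of 35 were higher and 1 was lower, against 1.81% and 1.26% of all genes. Of 49 migration genes, Ncam1 and Rock2 were higher (4.08%) and 0 lower, and with the Schwann cell marker level in the model 0 were higher and 5 lower, against 1.34% and 2.63% of all genes.

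The remaining lists held at most 2 low p-values each. None of 58 inflammatory mediators or 32 antigen presentation genes tested had a p under 0.05, nor did any of 34 axon guidance genes. Of 38 interferon response genes, Stat2 was higher (0.58 ± 0.26), which is 2.63% against 2.17% of all genes. The anti-inflammatory cytokine gene Il10 lay at 0.0422 to 17.6 CPM after delayed and 0 to 9.2 CPM after immediate repair (1.07 ± 1.16, 95% confidence interval -1.38 to 3.52). Il6 was at -0.42 ± 0.34 (95% confidence interval -1.14 to 0.30) and Tnf at -0.45 ± 0.41. Of 36 hypoxia genes, P4ha2 was lower (-0.84 ± 0.36), which is 2.78% against 1.48% of all genes. Among 44 immediate early and dissociation genes Nr4a3 and Maff were higher (4.55%), and among 18 genes of the p53 response Sesn2 was (5.56%). Of Lifr, Inhba, Rock2, Stat2, P4ha2, Nr4a3, Maff and Sesn2, only Nr4a3 and Maff had a p under 0.05 without the 4 libraries that stood apart.

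The delay effect at day 14 was set against that at day 5, measured in 9 delayed and 7 immediate animals that were different mice. Of 10923 genes tested for a difference of effects between the days, 0 (0%) passed the adjusted threshold in edgeR, 545 (4.99%) had an unadjusted p under 0.05 and DESeq2 called 9. The difference was positive in 389 (3.56%) and negative in 156 (1.43%). Structural myelin genes held 15 positive and 0 negative of 31 tested, with a median difference of 2.01. By the same filter 26 members were tested at day 14 alone and 21 at day 5 alone. Some members, such as Ncmap, thus entered this contrast without passing the filter at day 5, which limits the count and the median. At day 5 itself 0 of 21 were higher and 7 lower, against 2% and 3.26% of all genes. Markers of cell types moved with this contrast. At day 5 the log2 fold changes of the 11 Schwann cell markers tested centred on -1.70 (median), with 4 lower and 0 higher, and the difference between the days was positive for 11 of 12 (median 1.82). Those of the 12 macrophage markers centred on 1.36, with 3 higher and 0 lower, and the difference between the days was positive for 1 of 12 (median -0.89). Their part in the difference between the days was not tested.

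For Mbp, with a log2 fold change of -0.70 ± 0.26 at day 5, the difference between the days was 2.12 ± 0.55, and for Prx it was 4.54 ± 1.43. Pou3f1 gave 2.82 ± 0.71 and S100b 3.87 ± 1.26. Gap43 had the opposite pattern, at 0 to 31.1 CPM against 0 to 6.54 CPM at day 5 (2.18 ± 1.17) and a difference of -4.39 ± 1.34. Ngfr was lower at both days, with -2.02 ± 0.88 at day 5.

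The smallest p-values of this contrast were those of Pmepa1, an inhibitor of TGF-β signalling (2.35 ± 0.49), and Serpina3n (5.18 ± 1.13), with adjusted p = 0.398 for both in edgeR. DESeq2 called both, with adjusted p = 0.00337 and 0.00128. Pmepa1 differed at day 5 (6.01 to 26.5 CPM against 31.3 to 114 CPM) and much less at day 14 (0.20 ± 0.28). Serpina3n was lower at day 5 (-3.64 ± 1.03) and higher at day 14.

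**Figure D5:**
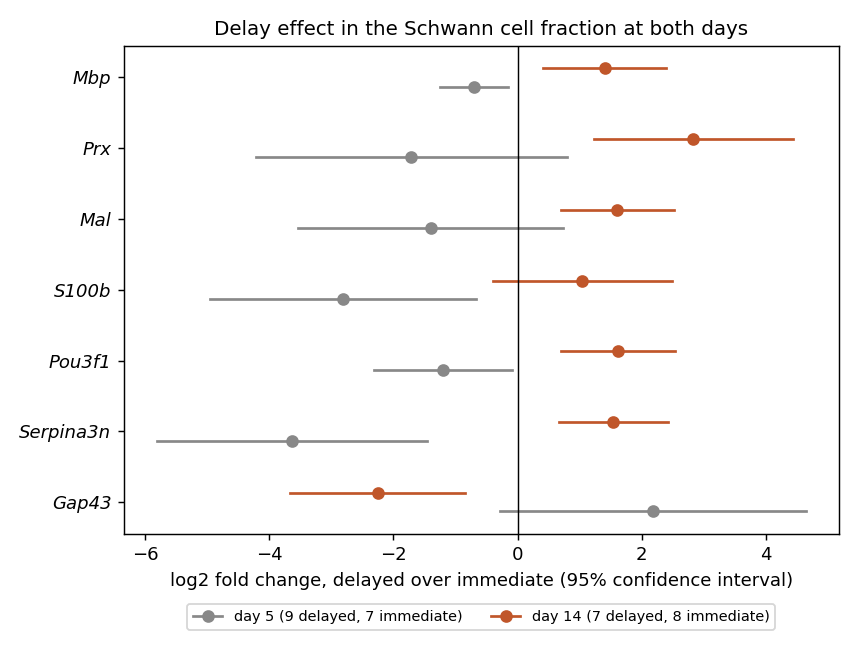
log2 fold change, delayed over immediate, with its 95% confidence interval at day 5 (grey) and day 14 (orange) for 7 genes of the Schwann cell fraction. All but Gap43 lie below 0 at day 5 and above 0 at day 14, Serpina3n moves from -3.64 to 1.54 and Gap43 from 2.18 to -2.25. Pmp22 and Egr2, which were positive at both days, are not plotted.

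Sex was tested as a modifier at day 14. Of 10226 genes, 0 passed the adjusted threshold and 203 (1.99%) had an unadjusted p under 0.05, with a log2 fold change that was more positive in males for 122 (1.19%) and in females for 81 (0.792%). Pmp22 was at 1297, 1255, 348 and 1307 CPM in the 4 delayed males and 617, 134 and 253 CPM in the 3 delayed females. It was at 220, 144, 71 and 113 CPM in the immediate males and 225, 741, 199 and 172 CPM in the immediate females. The delay difference was larger in males by 2.94 ± 0.87 on the log2 scale (95% confidence interval 1.08 to 4.79, adjusted p = 0.99995). It was also larger in males for Ncmap by 3.58 ± 1.27, for S100b by 3.26 ± 1.27 and for Kif21a by 2.31 ± 0.78, each with an unadjusted p under 0.05, and so it was for Mbp (95% confidence interval 0.27 to 3.94). For Mal the difference was 1.25 ± 0.85 and for Prx 0.99 ± 1.53, both with a p over 0.05. Of the 4 delayed libraries with high myelin RNA, 3 were male, and immediate replicate 6, the high library of its group, was female.

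The same animals also gave a macrophage library each. Of 10596 genes, 0 differed in delay effect between the fractions at the adjusted threshold, 343 (3.24%) did at an unadjusted p under 0.05 (209 or 1.97% in the positive and 134 or 1.26% in the negative direction) and DESeq2 called 3. Among 8589 genes tested in the macrophages alone, 102 were higher (1.19%) and 87 lower (1.01%) by the same threshold. Ern1 was at 0.03 ± 0.15 in macrophages and its difference of effects was 1.45 ± 0.34. Xrn2, with -0.04 ± 0.11 in macrophages, gave 0.73 ± 0.18, Rfc1 -1.60 ± 0.41 and Mcm6 -0.90 ± 0.23. The kinesin Kif1b was lower in macrophages (-0.31 ± 0.12) and higher in the Schwann cell fraction (0.47 ± 0.16), with a difference of 0.78 ± 0.17.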

How the data were processed

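The Schwann cell fraction of 15 bridges at day 14 was analysed, with the day 5 Schwann cell and day 14 macrophage libraries for the interactions. The members and gene lists were chosen with earlier results of these data known. Per the labels and the methods of the study, cDNA of sorted cells was amplified with SMART-Seq v4. The submitters' processing notes name cutadapt 1.8, TopHat2 2.1.1, Cufflinks 2.2.1 and Cuffnorm with the mm10 genome. The authors deposited estimated counts per gene, which are expected counts of reads without normalization. Which program counted them is not given in the sources used here, and 0.951% of the values in the Schwann cell table and 0.952% in the macrophage table were not whole and were rounded. Amplified cDNA carries no molecular identifiers, so counting error understates the true error at low counts, and genes with overlapping or near-identical copies may share counts.

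A gene entered the fit if 6 or more libraries reached 5 CPM. TMM scaling and quasi-likelihood tests came from edgeR 4.0.16 (R 4.3.3), with repair group as the only term and a threshold of 0.05 after Benjamini-Hochberg adjustment. The standard error was obtained from the estimate and its F statistic. Repair by day, by sex and by fraction (animal as a block) were interaction terms. Genes named were the 12 in each direction with the smallest p, up to 4 per list and textbook members, markers, genes whose groups did not overlap, up to 5 per direction of each interaction, genes called by an alternative, and genes the study names. Cnp, Gjc3, Ugt8a, Mcm3, Btc, Dhh, Kcna1, Cldn1, Pard3, Ezr, Camp and the plotted subsets were chosen for the text with their values in view. Alternatives were DESeq2 1.42.0, limma-voom (limma 3.58.1) with sample weights, library size scaling, other filters, sex or a marker level (mean log2(CPM + 1)) as a covariate, the replicate block, all 4 Schwann cell groups in 1 fit, and each library, or a set of 4 or 6, left out. The tests were also run on simulated counts, with an outcome that is not reported here. Positions are from GENCODE for GRCm38. Of 1953 pairs of libraries, 0 held the same counts. Some genes are not reported here, though they count among list members.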

Additional observations from a re-analysis of the deposited data

Results flagged for a closer look

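In 18 of 168 groups examined (10.7%), 1 library lay far from the rest of its group by Dixon's test, where chance flags about 1 in 20 groups. Among myelin and repair genes, Mal was lowest in immediate replicate 3 (6.74 CPM, nearest 21.6) and Ncmap highest in immediate replicate 6 (28.1, nearest 6.6). Gap43 (0.686 CPM, nearest 7.72) and Fgf5 (10.8, nearest 53.9) were lowest in delayed replicate 3. Aqp1 (0.0821 CPM, nearest 5.56) and Cdk2 (11, nearest 30.7) were lowest in delayed replicate 1. Tfdp2 was at 0 CPM in immediate replicate 6 (nearest 5.07). Cux1 was highest in delayed replicate 1 (82.9 CPM, nearest 63.2) and lowest in immediate replicate 5 (13.9, nearest 34.6), where Sesn2 was also lowest (31.8, nearest 49.7). Mcm3 was lowest in immediate replicate 4 (33.2 CPM, nearest 57.7), Rock2 lowest in immediate replicate 3 (43.5, nearest 78.8) and Cyp51 highest in immediate replicate 2 (145, nearest 79.3).

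Summed markers of other cells also stood out in single libraries. Eosinophil and mast cell markers were lowest in delayed replicate 1 (57.7 CPM, nearest 263). B and plasma cell markers were highest in immediate replicate 2 (1310 CPM, nearest 25). Skeletal muscle markers were highest in delayed replicate 2 (450 CPM, nearest 14.4) and immediate replicate 8 (256, nearest 12.4), and erythroid markers in immediate replicate 8 (1.18, nearest 0.481).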

How the results depend on the processing

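In DESeq2 the delay at day 14 gave 3 genes (Kif21a 2.40, Aqp1 -2.61 and Gpr155 2.06), the difference between days 9, and that between fractions 3, where edgeR gave 0. At an unadjusted p under 0.05 the 4 contrasts (delay, days, sexes, fractions) gave 373, 545, 203 and 343 genes. Leaving out any 1 library left 0 adjusted calls for the delay. Under the settings added after seeing the data, genes whose groups did not overlap numbered 21 higher and 23 lower without the 4 libraries that stood apart, and 5 to 11 higher and 1 to 5 lower with 1 library left out. With the Schwann cell marker level in the model Egr2 (-0.019), Sox2 (-0.43) and Kcna1 (-0.087) turned sign, Sox2 also in limma-voom (-0.034), without the 6 libraries (-0.35) and without delayed replicate 2 (-0.025) or 6 (-0.01), in a range from -0.025 to 0.41 with 1 library left out. Counted as genes with at least 1 count, the delayed libraries held 10.8 fewer (a difference of -10.8 in means) and not more. The causes were not tested. Since nearly all adjusted p-values lay near 1, the adjusted threshold tells little about stability. Of 37 genes with an unadjusted p under 0.05, 15 reached 0.05 or more with some 1 library left out, 15 of 36 without the 4 libraries, 18 of 34 without the 6 libraries, 18 with the Schwann cell marker level, 1 with the dendritic cell marker level and 4 with library size scaling. The split of low p-values, 59.5% higher, was 66.5% with library size scaling, 33.7% with the Schwann cell marker level, 49.5% without a filter (821 higher and 839 lower) and 49.8% in limma-voom.

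Same-numbered libraries correlated over 0.1 in 3 of 7 numbers and best with their own number in 1, so the replicate number was not taken as a pairing. With the replicate block 0 genes passed, and 160 were higher and 113 lower at an unadjusted p under 0.05. With 3 counts as a floor, levels under 0.102 to 0.258 CPM, depending on the library, were not detectable at this depth.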
